A study of Mus musculus with 2 samples.

Results

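Fabp7, Slc1a3, Prom1, Ptprz1, Tnc, Ttyh1, Dbi and Mfge8 are 8 genes of radial glia that encode lipid-binding, membrane or matrix proteins. They were chosen by symbol in the GENCODE M21 annotation, and all 8 were found among the 55536 genes of the tables, 22015 of them nuclear and protein-coding. They were measured in 2 libraries of polyadenylated RNA from the neural tube of healthy B6NCrl mouse embryos at embryonic day 12.5, which form 1 group with no treatment and no mutant allele. Replicate 2 was a pool of 88 embryos and replicate 1 a separate pool of 120, both sexes mixed, so a value is an average over a whole pool and the libraries are compared only with each other.

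Radial glia are the progenitors that line the ventricle of the neural tube and send a long process to the pial surface. They are rich in carriers of fatty acids and fatty acyl-CoA, in glutamate transporters and in cholesterol-rich membrane protrusions, and they lay down proteoglycans and glycoproteins on which young neurons migrate. Fabp7 (brain lipid-binding protein) carries polyunsaturated fatty acids, and Dbi (acyl-CoA-binding protein, also a ligand of the GABA-A receptor) holds long-chain acyl-CoA esters. Slc1a3 (GLAST) takes up glutamate, Prom1 (CD133) is a glycoprotein of membrane protrusions, and Ttyh1 is a multi-span membrane protein of the tweety family. Ptprz1 is a receptor tyrosine phosphatase that carries chondroitin sulphate, Tnc (tenascin-C) is a matrix glycoprotein, and Mfge8 is a secreted protein that bridges exposed phosphatidylserine and integrins.

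Several of these genes make alternative proteins, and the sequences below are the coding stretches that set the forms apart. They are read from the GENCODE M21 transcripts (GRCm38), in the direction of transcription. Capitals mark the alternative exon, with 12 coding bases of the neighbouring exons on either side in lower case. In Ptprz1, capitals mark the bases that Ptprz1-206 reads past the end of exon 12, up to and including its stop codon, and 30 bases of exon 12 are in lower case. The Mfge8 exon at chr7:79143278-79143388 (minus strand) adds 37 residues, the proline- and threonine-rich stretch of the long form. The Tnc exon at chr4:63984460-63984732 (minus strand) adds 91 residues within the fibronectin type III region. The Prom1 exons lie at chr5:44058626-44058652 and chr5:44001270-44001293 (minus strand) and add 9 and 8 residues. The Ttyh1 exon at chr7:4133357-4133402 (plus strand) has 46 bases and so shifts the reading frame of the end of the protein. The Ptprz1 stretch is at chr6:23002747-23002751 (plus strand).
Mfge8 exon: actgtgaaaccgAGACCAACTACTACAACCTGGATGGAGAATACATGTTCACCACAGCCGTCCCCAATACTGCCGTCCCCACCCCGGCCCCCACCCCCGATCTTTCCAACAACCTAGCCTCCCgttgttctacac
Tnc exon: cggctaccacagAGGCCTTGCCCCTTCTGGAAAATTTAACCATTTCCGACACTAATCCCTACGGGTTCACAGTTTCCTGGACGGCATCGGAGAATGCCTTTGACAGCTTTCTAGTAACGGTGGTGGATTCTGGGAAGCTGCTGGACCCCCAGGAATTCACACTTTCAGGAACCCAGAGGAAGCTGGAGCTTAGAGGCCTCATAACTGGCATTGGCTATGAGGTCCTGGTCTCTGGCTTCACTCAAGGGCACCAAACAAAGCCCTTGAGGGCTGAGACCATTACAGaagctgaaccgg
Prom1 exon near the start: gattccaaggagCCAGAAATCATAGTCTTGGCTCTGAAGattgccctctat
Prom1 exon near the end: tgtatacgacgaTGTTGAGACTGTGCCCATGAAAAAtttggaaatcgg
Ttyh1 exon: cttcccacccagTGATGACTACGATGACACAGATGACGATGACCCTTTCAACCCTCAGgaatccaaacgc
Ptprz1 read-through end: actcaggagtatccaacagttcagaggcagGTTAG

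All 8 genes exceeded 1 TPM (a transcript level corrected for length and depth) in both libraries, against 60.9% of nuclear protein-coding genes. The mean levels spanned 237-fold, and the lipid carriers Fabp7 and Dbi stood far above the 6 membrane and matrix genes. Together the genes took 2870 TPM in replicate 2 and 2725 TPM in replicate 1, or 0.308% and 0.293% of all TPM on genes. Fabp7 and Dbi made up 90.0% of that sum in replicate 2 and 89.7% in replicate 1. These were the only 2 of the 8 at 100 TPM or more in both libraries, a level reached by 7.25% of nuclear protein-coding genes. In bulk tissue fewer cells of a type and less RNA per cell cannot be told apart. The steps between genes also rest on the division of counts by effective length. In replicate 2 this length was 706 bases for Fabp7 and 7002 bases for Tnc. Whether coverage was even along transcripts was not tested.

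**Figure D1:**
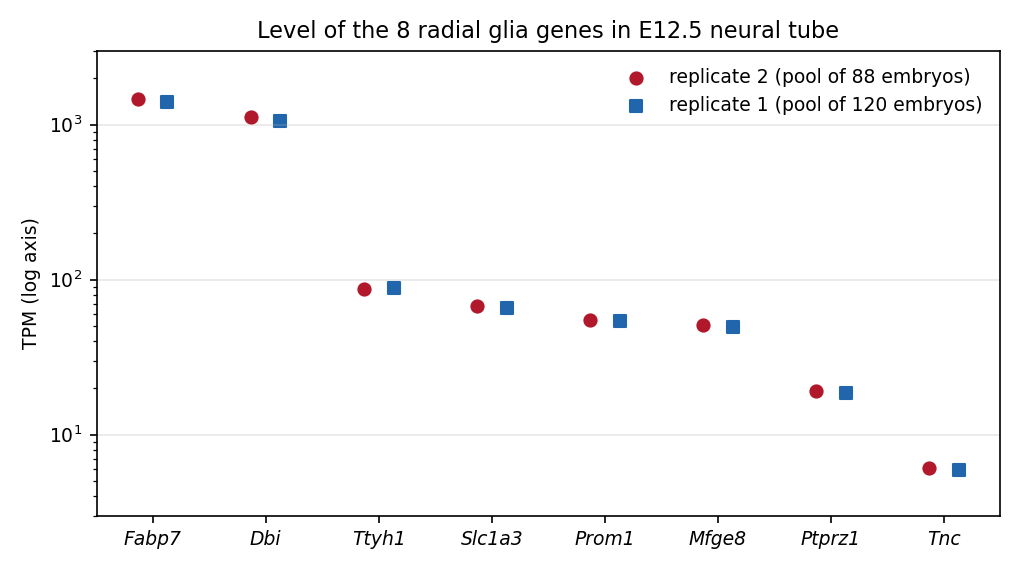
TPM (log axis) of the 8 genes in replicate 2 (red circles) and replicate 1 (blue squares), in the order of their means. Fabp7 and Dbi lie above 1000 TPM, Ttyh1, Slc1a3, Prom1 and Mfge8 lie between 49.2 and 88.2 TPM, and Ptprz1 and Tnc lie below 20 TPM.

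The lipid carriers led. Fabp7 (chr10:57784881-57788450, plus strand) had 1464 TPM in replicate 2 and 1395 TPM in replicate 1, from 22404 and 20622 estimated counts. Its mean of 1430 ± 49.3 TPM (SD, n = 2) ranked 31 among nuclear protein-coding genes. Dbi (chr1:120113280-120121078, minus strand) had 1119 TPM in replicate 2 and 1049 TPM in replicate 1, which gave rank 48. Both genes read somewhat higher in replicate 2, and the lower Fabp7 value still exceeded the higher Dbi value. Within a library Fabp7 exceeded Dbi 1.32-fold on average, by 0.40 ± 0.02 on the log2 scale of TPM (SD, n = 2). Below Dbi came the widest step in the order, 12.3-fold, to Ttyh1.

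The 3 membrane proteins of progenitors lay close together. Ttyh1 (chr7:4119408-4136708, plus strand) had 87.5 TPM in replicate 2 and 88.2 TPM in replicate 1. Slc1a3 (chr15:8634124-8710764, minus strand) had 67.3 TPM in replicate 2 and 65.2 TPM in replicate 1. Prom1 (chr5:43993620-44102032, minus strand) had 55.1 TPM in replicate 2 and 53.9 TPM in replicate 1. Each of these genes stayed above the next in both libraries, and their libraries' ranges did not overlap. Their ranks were 1933, 2676 and 3280.

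Among the secreted and matrix genes, Mfge8 (chr7:79133768-79149060, minus strand) had 50.9 TPM in replicate 2 and 49.2 TPM in replicate 1. It stood just below Prom1, which exceeded it 1.09-fold, the smallest step between neighbours. Ptprz1 (chr6:22875502-23052916, plus strand) had 19.1 TPM in replicate 2 and 18.5 TPM in replicate 1. Tnc (chr4:63959785-64047015, minus strand) was lowest at 6.10 TPM in replicate 2 and 5.95 TPM in replicate 1, from 926 and 865 estimated counts, and ranked 10630. In the M21 values all 7 neighbouring pairs kept the same order in both libraries without overlap. The step from Prom1 to Mfge8 depended on the annotation. In a quantification of the same reads against GENCODE M4, Prom1 (43.3 TPM in replicate 2 and 44.1 TPM in replicate 1) lay below Mfge8 (52.35 and 50.78 TPM). No pair was tested.

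The nearest nuclear protein-coding genes by level give a scale for these values. Fabp7 lay near Cdk4 (1464 TPM in replicate 2 and 1484 TPM in replicate 1), and Dbi next to Ywhae (1089 and 1060 TPM) and the embryonic globin Hba-x. Ttyh1 lay next to Spin1 and Rtl8c, Slc1a3 next to Gjc1 and Tgfbr1, Prom1 next to Mrpl48 and Psmg3, and Mfge8 next to Jakmip2 and Ythdf1. Ptprz1 lay next to Oscp1 and Svip, and Tnc next to Phka1 and Zbtb16. The measure was the distance of log2(TPM + 1) over the 2 libraries only, which is a likeness of level.

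The 8 genes differed little between the pools. On scaled estimated counts, the log2 ratio of replicate 2 over replicate 1 ran from -0.06 for Prom1 to 0.08 for Ttyh1. None of the 8 passed a log2 ratio of 0.32 in either direction, used here as the limit for a difference, which 23.3% of all 20125 genes with enough counts passed, and 5.43% of genes at a mean of 5 TPM or more. The median ratio of the 8 was 0.01, beside 0.01 for protein-coding genes at 5 TPM or more, whose 5th and 95th percentiles were -0.22 and 0.23. Fabp7 had a ratio of 0.03 (95% counting interval 0.003 to 0.058), Dbi 0.05 (0.007 to 0.088) and Ttyh1 0.08 (0.025 to 0.139). These 3 intervals lay above 0, and those of the other 5 genes included 0. The intervals cover counting error only, and leave out variation between pools and error in the scaling. The libraries have no molecular identifiers, so PCR copies count as reads and the intervals may be too narrow even for counting error.

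**Figure D2:**
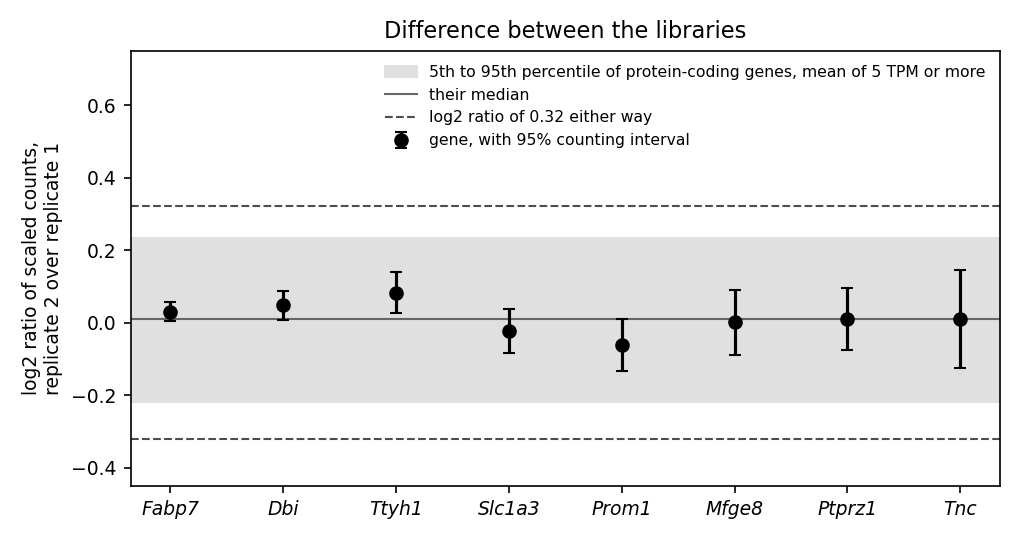
Log2 ratio of scaled estimated counts, replicate 2 over replicate 1, for each gene with its 95% counting interval, over the range of protein-coding genes at a mean of 5 TPM or more (grey band, 5th to 95th percentile) and the limits of 0.32 either way (dashed). All 8 genes lie inside the band.

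The sign of the ratio depended on the scale in 3 of the 8 genes. For Ttyh1 the log2 ratio was 0.08 on scaled counts and -0.01 on TPM. Its effective length, by which a count is divided to give TPM, was 2770 bases in replicate 2 and 2525 bases in replicate 1. Slc1a3 and Prom1 had -0.02 and -0.06 on scaled counts and 0.04 and 0.03 on TPM.

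Fabp7 was the highest of the fatty acid-binding proteins, small intracellular lipid carriers. Of 10 such genes measured 3 exceeded 1 TPM in both libraries (60.9% of nuclear protein-coding genes did), and 4 were listed at 0 in both. Fabp7 took 72.8% of their TPM in replicate 2 and 72.3% in replicate 1. Fabp5, another fatty acid carrier of neural progenitors, had 507 TPM in replicate 2 and 491 TPM in replicate 1, and Fabp3 had 38.8 and 42.8 TPM. The related retinoic acid carriers Crabp1 (508 TPM in replicate 2 and 601 TPM in replicate 1) and Crabp2 (293 and 317 TPM) read lower in replicate 2. Pmp2, the carrier of myelinating Schwann cells, had 0.04 TPM in replicate 2 and was listed at 0 in replicate 1.

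Dbi held 81.6% of the TPM of the acyl-CoA-binding domain genes in replicate 2 and 80.1% in replicate 1. Of 8 such genes 6 exceeded 1 TPM in both libraries, beside 60.9% of nuclear protein-coding genes. The peroxisomal enzyme gene Eci2 came next with 89.4 TPM in replicate 2 and 93.2 TPM in replicate 1, then Acbd6 (77.1 and 80.2 TPM), Acbd5 (53.9 and 56.2 TPM) and Acbd3 (24.5 and 21.8 TPM). Dbil5 and Acbd7 stayed below 1 TPM. All 6 genes of the partner list, the enzymes that make long-chain acyl-CoA and the translocator protein Tspo, exceeded 1 TPM in both libraries (60.9% of nuclear protein-coding genes did). The highest was Acsl3 with 64.9 TPM in replicate 2 and 58.2 TPM in replicate 1, and Tspo, a mitochondrial binding partner of Dbi, had 12.4 and 14.2 TPM.

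Slc1a3 took 52.8% of the TPM of the 7 SLC1 transporters in replicate 2 and 52.6% in replicate 1. Slc1a2 (GLT-1), the main glutamate transporter of mature astrocytes, had 12.8 TPM in replicate 2 and 12.98 TPM in replicate 1, and the neuronal transporter Slc1a1 had 9.00 and 9.43 TPM. The neutral amino acid transporters Slc1a4 and Slc1a5 had 21.9 and 14.1 TPM in replicate 2 and 20.3 and 14.8 TPM in replicate 1. Slc1a6, a transporter known from Purkinje cells, had 2.22 and 1.39 TPM and passed the limit of 0.32, from 93 and 56 counts. Glutamine synthetase, Glul, which acts on glutamate after uptake, had 97.6 TPM in replicate 2 and 103.8 TPM in replicate 1.

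In the smaller families Prom1 and Ttyh1 also led. Prom1 held 99.2% of prominin TPM in replicate 2 and 99.5% in replicate 1, with Prom2 at 0.47 and 0.25 TPM. Ttyh1 held 51.4% of tweety TPM in replicate 2 and 52.1% in replicate 1. Its relative Ttyh3 had 65.7 and 62.3 TPM, and Ttyh2 had 17.02 and 18.7 TPM.

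Tnc held 77.8% of tenascin TPM in replicate 2 and 79.0% in replicate 1, at a low level for the whole family. The neural tenascin Tnr had 1.60 TPM in replicate 2 and 1.41 TPM in replicate 1, and Tnn and Tnxb stayed below 1 TPM. All 10 listed receptors and matrix partners of tenascin-C exceeded 1 TPM in both libraries (60.9% of nuclear protein-coding genes did). Among them Itgb1 had 138 TPM in replicate 2 and 124 TPM in replicate 1, the proteoglycan gene Ncan 74.0 and 69.5 TPM, and fibronectin, Fn1, 63.3 and 62.1 TPM. Among the integrin alpha chains Itgav had 37.2 TPM in replicate 2 and 36.03 TPM in replicate 1, with Itga9 at 7.42 TPM in replicate 2 and 8.38 TPM in replicate 1 and Itga8 at 3.22 and 2.96 TPM. Vcan was the only partner past the limit of 0.32, with 28.7 TPM in replicate 2 and 37.1 TPM in replicate 1 (log2 ratio -0.33 on scaled counts).

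Ptprz1 was the one gene below its relative. Ptprg, the other receptor phosphatase of the subfamily, had 33.0 TPM in replicate 2 and 36.3 TPM in replicate 1, and Ptprz1 held 36.7% and 33.8% of their sum. The ligands Mdk and Ptn were higher than the receptor. Midkine, Mdk, had 611 TPM in replicate 2 and 606 TPM in replicate 1, and pleiotrophin, Ptn, had 337 and 319 TPM. The adhesion partners Ncam1 (219 and 212 TPM), Nrcam (92.3 and 86.4 TPM) and Cntn1 (14.1 and 11.8 TPM) were present too. Of the 8 listed partners, Cntn1, Tnc and Tnr lay below Ptprz1, and the ligand gene Il34 stayed below 1 TPM (0.82 and 0.90 TPM).

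Mfge8 and its relative Edil3, which has the same type of lipid-binding discoidin domains, lay close together, with Edil3 at 48.2 TPM in replicate 2 and 42.9 TPM in replicate 1. All 10 genes of the list with their integrins and the engulfment genes exceeded 1 TPM in both libraries (60.9% of nuclear protein-coding genes did). Integrin Itgav, the alpha chain that binds Mfge8, had 37.2 TPM in replicate 2 and 36.03 TPM in replicate 1. Of its beta partners Itgb5 had 24.6 TPM in each library and Itgb3 had 2.89 and 2.45 TPM. Among the engulfment receptors Axl had 26.1 and 27.9 TPM, Tyro3 16.3 and 16.5 TPM, and Mertk 2.84 and 2.45 TPM.

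**Figure D3:**
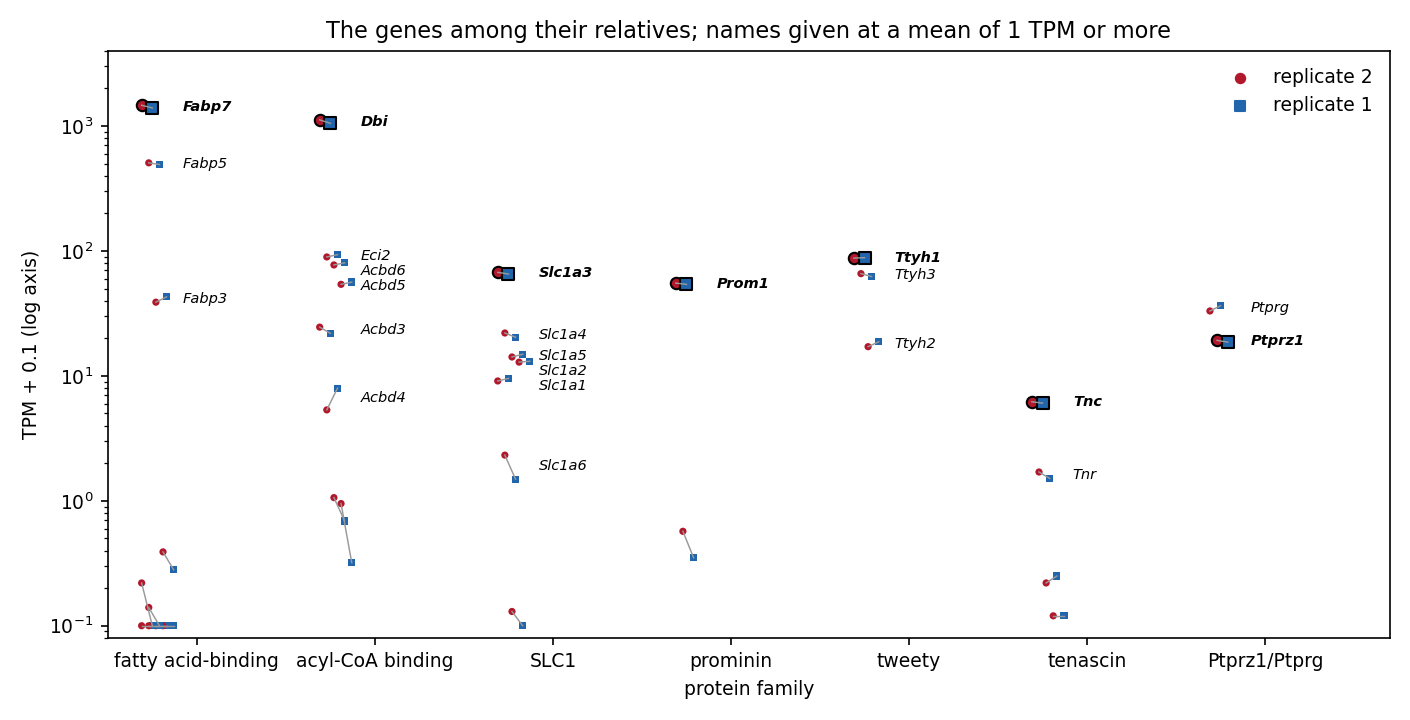
TPM + 0.1 (log axis) of every measured gene of 7 families in replicate 2 (red circles) and replicate 1 (blue squares, joined by a line), with the radial glia genes outlined and in bold. Fabp7, Dbi, Slc1a3, Prom1, Ttyh1 and Tnc top their families, and Ptprz1 lies below Ptprg.

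The tissue also held other genes of a list of radial glia and neural progenitor genes. All 16 genes of that list exceeded 1 TPM in both libraries, beside 60.9% of nuclear protein-coding genes. The list summed to 2164 TPM in replicate 2 and 2141 TPM in replicate 1, and which cells carried these levels was not tested. Vim led with 930 TPM in replicate 2 and 878 TPM in replicate 1, followed by Hes5 (312 and 322 TPM), and Sox1 was lowest (1.47 and 1.59 TPM). Of 7 genes of mature astroglia 4 exceeded 1 TPM, led by Glul and Slc1a2, while the defining filament gene Gfap had 0.09 TPM in replicate 2 and 0.06 TPM in replicate 1.

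Other cell types that can express some of the 8 genes were also in the samples. All 8 markers of Schwann cell precursors and crest, where Fabp7 is also known, exceeded 1 TPM, beside 60.9% of nuclear protein-coding genes. The sum of these markers was 248 TPM in replicate 2 and 224 TPM in replicate 1. They included Ngfr (98.7 and 82.8 TPM), Tfap2b (62.0 and 69.4 TPM) and, lowest, Cdh19 (2.04 and 1.43 TPM). Past the limit of 0.32 were 2 of these 8, Cdh19 and Sox10 (28.3 and 21.4 TPM), both higher in replicate 2, beside 23.3% of all genes. In the other marker lists Snap25 (neuron list) was past it and higher in replicate 2. Sox3 (radial glia and neural progenitor list) and Aqp4 (astroglia list) were past it and lower. All 9 mesenchyme and meninges markers exceeded 1 TPM, with sums of 889 and 866 TPM, led by Col3a1 (394 and 370 TPM). The tendon and cartilage list (5 of 5 genes, sums of 183 and 189.5 TPM), the endothelial and pericyte list (7 of 7, 133 and 126 TPM), the macrophage list (5 of 5, 67.7 and 61.9 TPM), the epithelial list (5 of 5, 27.3 and 25.8 TPM) and the neuron list (7 of 7, 2485 and 2255 TPM) were all detected. Of 4 choroid plexus and roof plate markers only Lmx1a exceeded 1 TPM in both libraries. What these cells contributed to the 8 levels was not tested.

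The transcript tables showed which forms carried each gene. In Fabp7 a single coding transcript, Fabp7-201 (132 residues), held 98.6% of the gene's TPM in replicate 2 and 98.8% in replicate 1. In Dbi, Dbi-201 (87 residues) held 74.8% and 76.2%, and the non-coding Dbi-203 held 23.9% and 23.2%. In Slc1a3, Slc1a3-201 (543 residues) held 69.2% and 70.3%, and 4 retained-intron transcripts together held 22.4% and 21.3%. These 3 genes had nearly the same shares in both libraries. Over the 8 genes the median share of TPM on protein-coding transcripts was 84.9%, beside 88.7% over 10031 protein-coding genes with several transcripts.

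**Figure D4:**
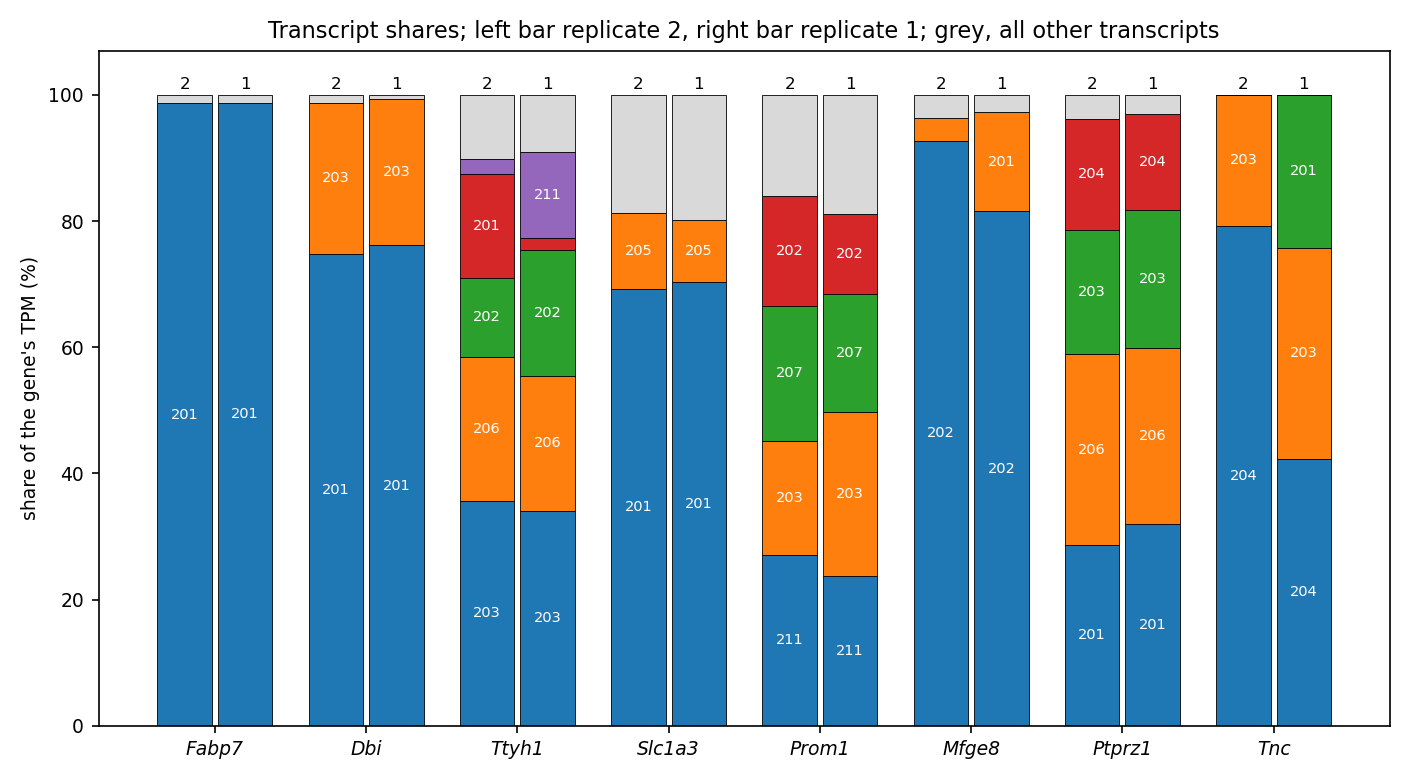
Share of each gene's TPM (%) carried by its transcripts, replicate 2 in the left bar and replicate 1 in the right bar of each pair. Transcripts at 10% or more in either library are coloured and numbered (unnumbered where under 6%), and all others are grey; Tnc, Ttyh1 and Mfge8 differ most between the bars.

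Ptprz1 split among several kinds of product. Ptprz1-201, the full receptor of 2312 residues, held 28.6% of the gene's TPM in replicate 2 and 32.0% in replicate 1. Ptprz1-206 held 30.4% and 27.9%. It has 12 exons, reads past the end of exon 12 into the stop codon shown above, and codes for 1612 residues without the later exons. Phosphacan, the known secreted form of this protein, also lacks the membrane and phosphatase parts. Ptprz1-204, a short receptor of 1463 residues, held 17.6% and 15.3%, and lacks 2547 bases of exon 12. A retained-intron transcript, Ptprz1-203, held 19.7% and 21.8%. The receptor and the form that ends after exon 12 were thus close in level, at 5.47 and 5.81 TPM in replicate 2 and 5.93 and 5.16 TPM in replicate 1, and their order differed between the libraries.

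**Figure D5:**
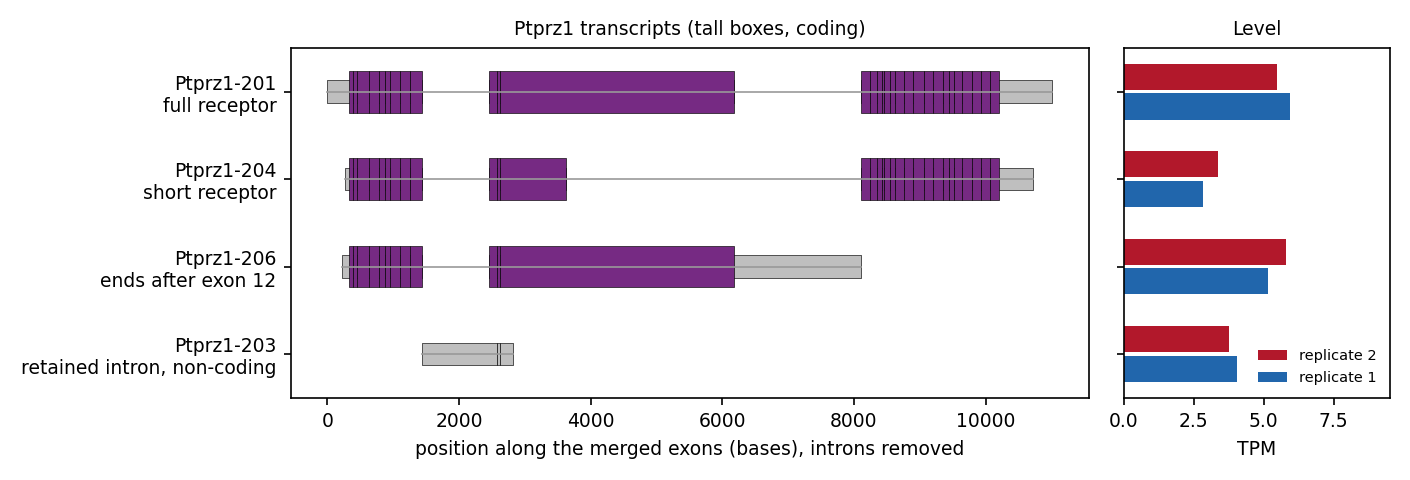
Left, the 4 Ptprz1 transcripts at 10% or more, drawn along the merged exons (bases, introns removed), with coding parts as tall purple boxes and other exon parts in grey; right, their TPM in replicate 2 (red, upper bar) and replicate 1 (blue, lower bar). Ptprz1-201 and Ptprz1-206 share the exons on the left and lie between 5.16 and 5.93 TPM.

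The annotation release changed the level of Ptprz1 more than that of any other of the 8 genes. Against GENCODE M4, which has only the full receptor transcript, Ptprz1 had 11.5 TPM in replicate 2 and 11.2 TPM in replicate 1. This was a log2 difference of -0.73 from M21 in each library. Its estimated counts were 1895 and 1767 in M4, against 2295 and 2144 in M21, and its effective length was 7969 bases in M4, against 5537 and 5532 bases in M21. Prom1 was also lower in M4, with 43.3 TPM in replicate 2 and 44.1 TPM in replicate 1 (log2 differences of -0.35 and -0.29). There it lay below Mfge8 (52.35 and 50.78 TPM), the reverse of their order in M21. The 6 genes other than Ptprz1 and Prom1 differed by 0.04 to 0.08, near the median of all genes, 0.07 in each library. Past 0.32 on the log2 scale in both libraries was 1 of the 8, Ptprz1, beside 10.8% of 14977 genes.

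Prom1 had the most transcripts of the 8 in M21, 19, and 8 transcripts in M4. The leading form differed between the libraries. The highest mean share belonged to Prom1-211, a fragment of 1089 bases at the 3′ end that M4 lacks, with 27.1% in replicate 2 and 23.7% in replicate 1. Among full-length forms Prom1-203 held 18.1% and 26.01%, Prom1-207 held 21.4% and 18.8%, and Prom1-202 held 17.5% and 12.7%. Of the TPM on transcripts that span it, the exon of 27 bases shown above was in 34.9% in replicate 2 and 33.4% in replicate 1. The exon of 24 bases was in 69.4% and 67.7%, so both differed by under 2 points between libraries. The fragment Prom1-211 counts among the transcripts with the exon of 24 bases. Its use among full-length forms alone was not computed.

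Tnc, Ttyh1 and Mfge8 had a transcript whose share differed by 10 points or more between the libraries, 3 of 8 genes beside 18.9% of the 10031. Mfge8-202, the short form of 426 residues, held 92.7% in replicate 2 and 81.5% in replicate 1. Mfge8-201, the long form of 463 residues with the exon shown above, held 3.66% and 15.7%. Its deposited TPM interval was 0.854 to 3.32 in replicate 2 and 5.30 to 9.90 in replicate 1, without overlap; the confidence level of these intervals is not stated. The gene as a whole had a log2 ratio of 0.00 on scaled counts. With 1 library on each side the difference in form has no replicate check.

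Tnc-204 (2019 residues) held 79.2% of Tnc TPM in replicate 2 and 42.3% in replicate 1, the widest difference of any transcript here. Its deposited TPM intervals overlapped slightly, at 3.59 to 5.09 in replicate 2 and 1.61 to 3.69 in replicate 1. From posterior mean TPM the share of Tnc-204 was 73.3% and 45.3%. Tnc-201, which has the same coding length, was listed at 0 in replicate 2 and held 24.3% in replicate 1. The posterior count of Tnc-201 was 50.7 ± 40.1 reads in replicate 2 and 154 ± 75.3 reads in replicate 1 (posterior standard deviation). Tnc-203 (2110 residues), the form with the exon shown above, held 20.8% in replicate 2 and 33.4% in replicate 1, with overlapping TPM intervals of 0.661 to 1.72 and 1.31 to 2.86.

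In Ttyh1 the coding forms Ttyh1-203 and Ttyh1-206 (450 residues each) were steady, at 35.7% and 22.8% in replicate 2 and 34.1% and 21.4% in replicate 1. Ttyh1-202 (460 residues), which lacks the exon of 46 bases shown above, held 12.6% in replicate 2 and 20.0% in replicate 1. Ttyh1-201, annotated as a target of nonsense-mediated decay, held 16.5% and 1.89%, from 817 and 91.5 estimated counts. The retained-intron transcript Ttyh1-211 of 417 bases held 2.25% and 13.7%, from only 13.6 and 80.6 estimated counts. The 3 genes Prom1, Tnc and Ttyh1 overlap annotated genes on the opposite strand, and no strand-specific step is named, so antisense reads cannot be told apart. For Ttyh1 these were 9430041J12Rik with 114 counts in replicate 2 and 123 counts in replicate 1 and D030047H15Rik with 43 and 44 counts. For Prom1 it was Gm16401 (77 and 73 counts) and for Tnc 8030451A03Rik (9 counts and 1 count). For Fabp7, Dbi, Slc1a3, Ptprz1 and Mfge8 the posterior standard deviation of the gene's count was 0 in both libraries. It was also small for Prom1 (0.97 in replicate 2 and 0.84 in replicate 1), Ttyh1 (0.84 and 0.93) and Tnc (0.29 and 0).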

How the data were processed

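Per the labels' protocols, RNA was extracted with mirVana, and 10 ng was primed with oligo-dT (SMARTer Ultra Low kit), cut by Nextera tagmentation, with ERCC spike-ins added. The deposited notes name mm10 and 2 quantifications, against GENCODE M21 and M4. Aligner and quantifier: not given in the sources used here. The column names are those RSEM writes. The deposited estimated count shares out reads that match several genes. The deposited TPM divides it by effective length and sums to the same total over the whole table, spike-ins included, and the percent of a gene's TPM per transcript is also the authors'. Other deposited columns used were posterior standard deviations and TPM intervals. Totals were 35461403 estimated counts in replicate 2 and 33529531 in replicate 1, of which spike-ins took 1024799 and 1001580.

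Gene levels are deposited M21 TPM. Counts were rounded, scaled by TMM in edgeR 4.0.16 (R 4.3.3), kept at 10 or more in either library, and given as a log2 ratio with a prior count of 2 and an exact 95% interval. With 1 library on each side there is no p-value, and a difference was called past 0.32 on the log2 scale. The calculation was tested on simulated data for 20125 genes in this comparison: of 200 genes changed 1.5-fold 98.5% passed it, and of 200 changed 1.1-fold 4.0%. The changed genes were drawn from those with at least 100 counts, and the simulated counts held counting error only. These shares therefore do not cover genes with fewer counts or other variation between the pools. Exon use is the TPM of transcripts with the exon over that of all transcripts spanning it. Named are the 8 genes, their families and partners, the 2 highest and the lowest of each marker list or some of them, transcripts at 10% or more, and the 2 nearest genes by level; Gfap and some markers outside this were chosen after their values were seen. The genes and the 22 lists were chosen with earlier results of these data known. One nearest gene and one family gene are not reported here. Read coverage along transcripts was not analysed here. Python 3.11.15, pandas 2.3.3 and matplotlib 3.10.9 were used.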

Additional observations from a re-analysis of the deposited data

How the results depend on the processing

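The 8 genes summed to 2798 TPM, to 2917 TPM in the M4 tables and to 3008 TPM when TPM was rescaled over genes without spike-ins; the number at 100 TPM or more (2) and the number past a log2 ratio of 0.32 between libraries (0) were the same under each alternative run. The spike-in scaling gave the highest log2 ratios for Fabp7 (0.09) and Dbi (0.10), and all 8 ratios stayed between -0.07 and 0.14 under all alternatives. Without the count minimum 12525 genes of the table passed 0.32, against 4684 with it, since genes with few counts were then included. The number of the 8 past 0.32 between releases was 1, and 2 with posterior mean TPM, where Prom1 joined Ptprz1. Without replicate 1 or without replicate 2 it lay between 1 and 2. Below the limit, the log2 ratio changed sign on deposited TPM for Ttyh1 (-0.01), Slc1a3 (0.04) and Prom1 (0.03), with spike-in scaling for Slc1a3 (0.03), and with the M4 tables for Mfge8 (-0.01). No paired analysis was possible because the series has 1 group. Tnc had the fewest counts of the 8 genes, 926 and 865.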
